A study of Homo sapiens with 21 samples.

Results

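FGFR1 ChIP-seq peaks of siNT-transfected CAMA1 cells were set against those of untransfected CAMA1 cells. The members are genomic regions, chosen by which of the 4 FGFR1 peak lists hold them on chromosomes 1 to 22 and X, after overlapping peaks of the 4 lists (at least 1 bp) had been merged into 19631 regions. A region listed in both siNT lists and in neither untransfected list is called siNT-only, the reverse untransfected-only, and a region in all 4 lists shared. There were 468 siNT-only regions (2.38% of the 19631), 2438 untransfected-only regions (12.4%) and 1329 shared regions (6.77%), 4235 members in all, against 236389 merged regions over the 14 peak lists of the series. The other regions of the 4 lists followed no such pattern, and 13003 were in 1 list only.

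CAMA1 is a breast cancer cell line described in the labels as oestrogen receptor-positive and FGFR1-amplified, used at a passage under 10. The siNT cells received siNT, the control of the siFOXA1 knockdown and by its usual meaning a non-targeting siRNA, and were collected 72 h after transfection. The siFOXA1 cells, used here only as further libraries, received an siRNA against FOXA1 and were collected at the same time. The untransfected cells received no siRNA. All cells were kept without estradiol for 48 h, and FGFR1 was precipitated with the same antibody throughout. Each group had 2 lists. The labels do not say whether the lists of a group came from separate cultures, and give no date of preparation, so transfection and any difference in time, handling or sequencing between the siNT and untransfected lists cannot be told apart. H3K27ac, H3K4me3, serine-5-phosphorylated RNA polymerase II (Pol II S5P) and FOXA1 were mapped in untransfected cells alone, so a mark given below for a siNT region is the mark of untransfected cells. H3K4me3 lay at an end of 10 of 11 luminal marker genes (not of ESR1), of 4 of 8 basal or mesenchymal and of 3 of 5 haematopoietic ones.

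FGFR1 is a receptor tyrosine kinase that binds fibroblast growth factors at the cell surface and signals through the FRS2, GRB2 and ERK route to immediate early genes. A pool of the receptor is also known to enter the nucleus, and ChIP-seq with an antibody to it reads out chromatin to which the protein is crosslinked, directly or through partners. H3K27ac marks active promoters and enhancers, H3K4me3 marks promoters, and phosphorylation of RNA polymerase II on serine 5 marks the polymerase near the start of transcribed genes. A transfected control siRNA is the usual baseline for a knockdown, and a comparison with untransfected cells shows how far that baseline differs from cells that were left alone.

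Promoter sequences show the letters under regions of each class that overlap a promoter, and 2 of the strongest such are printed here for each class, each the 250 bases before the annotated start, 5′ to 3′ along the gene, from RefSeq (GRCh38.p14, the primary assembly of hg38). Capitals mark any match, on either strand, to short motifs of common promoter factors. The GC box of SP and KLF factors was searched as GGGCGG, and the box of NF-Y as CCAAT. ETS factors were searched as CCGGAA and NRF1 as GCATGCG, CREB and ATF factors as TGACG, and AP-1 as TGANTCA. The TATA box was searched as TATAAA, the forkhead site as TGTTTAC and the E-box as CACGTG. Overlapping matches are joined: a pair of GC boxes overlap in TAF4 and in LOC124900276, and the CCAAT box overlaps a GC box in KDM3B. The siNT-only promoters are those of TAP2, a subunit of the peptide transporter of antigen presentation (chr6:32838740-32838989, minus strand), and KCNT1, a potassium channel (chr9:135701935-135702184, plus strand).
TAP2: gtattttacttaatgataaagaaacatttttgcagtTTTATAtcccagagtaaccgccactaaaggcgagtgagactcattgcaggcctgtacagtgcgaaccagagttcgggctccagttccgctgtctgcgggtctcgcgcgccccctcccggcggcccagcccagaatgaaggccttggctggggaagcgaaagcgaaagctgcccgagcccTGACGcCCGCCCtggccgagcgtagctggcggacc
KCNT1: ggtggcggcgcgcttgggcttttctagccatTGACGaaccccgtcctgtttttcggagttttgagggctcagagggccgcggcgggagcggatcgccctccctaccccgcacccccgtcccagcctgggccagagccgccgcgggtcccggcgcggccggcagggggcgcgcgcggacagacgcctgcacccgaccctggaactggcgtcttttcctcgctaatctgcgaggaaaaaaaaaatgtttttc
The untransfected-only promoters are those of POLDIP3, a binding partner of DNA polymerase delta (chr22:42614884-42615133, minus strand), and TAF4, a subunit of the general transcription factor TFIID (chr20:62065882-62066131, minus strand).
POLDIP3: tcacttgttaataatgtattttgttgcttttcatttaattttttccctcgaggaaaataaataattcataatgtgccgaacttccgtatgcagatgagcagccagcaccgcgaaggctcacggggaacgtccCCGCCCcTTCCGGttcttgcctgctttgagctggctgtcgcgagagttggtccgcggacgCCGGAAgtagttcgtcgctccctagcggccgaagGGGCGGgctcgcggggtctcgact
TAF4: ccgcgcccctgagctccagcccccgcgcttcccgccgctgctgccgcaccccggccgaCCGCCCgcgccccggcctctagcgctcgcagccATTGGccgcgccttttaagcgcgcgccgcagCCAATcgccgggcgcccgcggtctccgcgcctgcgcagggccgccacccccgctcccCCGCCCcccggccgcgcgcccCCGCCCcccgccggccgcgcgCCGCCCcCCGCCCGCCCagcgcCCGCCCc
The shared promoters are those of KDM3B, a histone H3 lysine 9 demethylase (chr5:138352435-138352684, plus strand), and LOC124900276, a gene named by its identifier alone (chr9:136728185-136728434, minus strand).
KDM3B: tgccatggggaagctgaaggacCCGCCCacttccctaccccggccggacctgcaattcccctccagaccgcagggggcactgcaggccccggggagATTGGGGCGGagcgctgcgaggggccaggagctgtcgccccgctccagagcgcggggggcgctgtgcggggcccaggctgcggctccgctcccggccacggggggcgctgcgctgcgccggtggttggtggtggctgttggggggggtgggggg
LOC124900276: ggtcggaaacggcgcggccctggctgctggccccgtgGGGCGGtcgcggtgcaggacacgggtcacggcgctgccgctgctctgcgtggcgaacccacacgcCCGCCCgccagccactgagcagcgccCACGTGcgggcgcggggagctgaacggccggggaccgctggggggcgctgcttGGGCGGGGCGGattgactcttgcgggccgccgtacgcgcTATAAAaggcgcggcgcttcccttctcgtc

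The TAP2 region had fold enrichments over background of 6.90 and 8.15 in the siNT lists and was in neither untransfected list. The KCNT1 region had 5.34 and 5.95 in the siNT lists. POLDIP3 had 18.0 and 19.98 in the untransfected lists and no siNT peak. The KDM3B region had 44.9 and 52.3 in siNT lists, against 33.7 and 39.1 in untransfected lists, and LOC124900276 had 31.7 and 38.8 in siNT lists, against 30.5 and 35.3 in untransfected lists. The TAF4 stretch held 7 GC boxes and 2 CCAAT boxes, POLDIP3 2 GC boxes and 2 ETS sites, TAP2 1 GC box, 1 CREB site and 1 TATA box, and KCNT1 a single CREB site.

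Over all genes with a region of a class within 1 kb of an end, median promoter GC content was above that of all promoters in each class. In the siNT-only class it was below that of genes with H3K4me3. The promoter table covered 15812 of 19974 protein-coding genes (79.2%), and each of its promoters runs from 250 bases before to 50 bases after the start. Median GC content was 64.0% for the 17 siNT-only genes in the table, 68.3% for 1945 untransfected-only genes and 69.7% for 683 shared genes, beside 62.7% over all promoters of the table and 65.7% over the 10869 of genes with H3K4me3 at an end. These genes need not have the region on the promoter itself. A siNT-only region overlapped 4 promoters (median GC content 62.0%), an untransfected-only region 1731 (69.3%) and a shared region 561 (71.0%). A GC box was present in 11 of 17 siNT-only, 77.7% of untransfected-only and 76.4% of shared promoters. It was in 58.5% of all promoters and 71.3% of those with H3K4me3. The ETS site was present in 3 of 17 siNT-only, 33.7% of untransfected-only and 24.7% of shared promoters, beside 22.8% of all and 29.1% of those with H3K4me3. The forkhead site, the kind FOXA1 recognises, was in 0 of 17 siNT-only promoters, 2.16% of untransfected-only and 2.64% of shared ones, beside 2.62% of all. Promoters were not tested against each other.

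Peak numbers of the siNT lists lay within the spread of the untransfected lists. The siNT lists held 6007 and 6594 peaks, against 5341 and 13135 in the untransfected lists, and the groups overlapped (exact permutation test over the 4 lists, two-sided, p = 1). With 2 lists against 2, this test cannot give a p below 0.333, so no difference between the lists can pass a threshold of 0.05. The background of the lists was recovered from fold enrichment and p-value and used in place of depth. It was 2.19 and 2.19 fragments in the siNT lists and 3.40 and 3.50 in the untransfected lists, and so moved with the group. Read totals were not used, and the part of depth in every result below was not tested. Of the peaks of siNT list 1, 37.9% were found in siNT list 2 and 44.6% in untransfected list 2, which is the longest list. Of the peaks of untransfected list 1, 93.1% were found in untransfected list 2.

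What separated the lists was where the peaks lay. H3K27ac regions (in both lists of the mark) carried 53.4% and 51.8% of siNT peaks, against 92.5% and 91.0% of untransfected peaks. H3K4me3 regions carried 40.4% and 39.9% of siNT peaks, against 90.2% and 84.7% of untransfected peaks. Gene ends (within 1 kb of either end of a protein-coding gene) held 24.1% and 25.6% of siNT peaks, against 67.5% and 60.3% of untransfected peaks. In all of these measures the groups did not overlap and the siNT lists were lower, by 39.1, 47.3 and 39.0 percentage points, each at the smallest p the design allows (0.333). Median peak width was likewise lower, 260 and 256 bp in siNT lists against 316 and 377 bp in untransfected lists. Pol II S5P regions carried 33.4% and 32.7% of siNT peaks, against 79.0% and 62.3% of untransfected peaks, and FOXA1 regions 29.8% and 27.5%, against 40.7% and 38.2%.

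A larger share of siNT peaks than of untransfected peaks lay in few stretches of the genome. Crowded windows were placed with the siFOXA1 lists, which take no part in the classes: 38 of 3042 windows of 1 Mb in which those lists held over 10 times their mean of 3.09 peaks. These windows held 50.1% and 48.4% of siNT peaks, against 16.5% and 18.5% of untransfected peaks. Chromosomes 1, 8 and 11 together held 61.7% and 60.5% of siNT peaks, against 29.5% and 31.0% of untransfected peaks. The siNT lists were higher in both measures, with no overlap between the groups. For the crowded windows the exact permutation p was 0.333, the smallest possible. The siFOXA1 lists were transfected like siNT and held 58.9% and 62.7% of their own peaks in these windows. Windows placed by them can therefore favour siNT over untransfected lists. Chromosomes 1, 8 and 11 hold the most siNT-only regions and were not a planned comparison, so their shares are a description. Outside the crowded windows the differences in marks were smaller and had the same direction: H3K4me3 lay under 61.9% and 59.0% of siNT peaks, against 96.5% and 95.6% of untransfected peaks, and gene ends held 37.7% and 39.0%, against 74.2% and 70.0%.

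**Figure D1:**
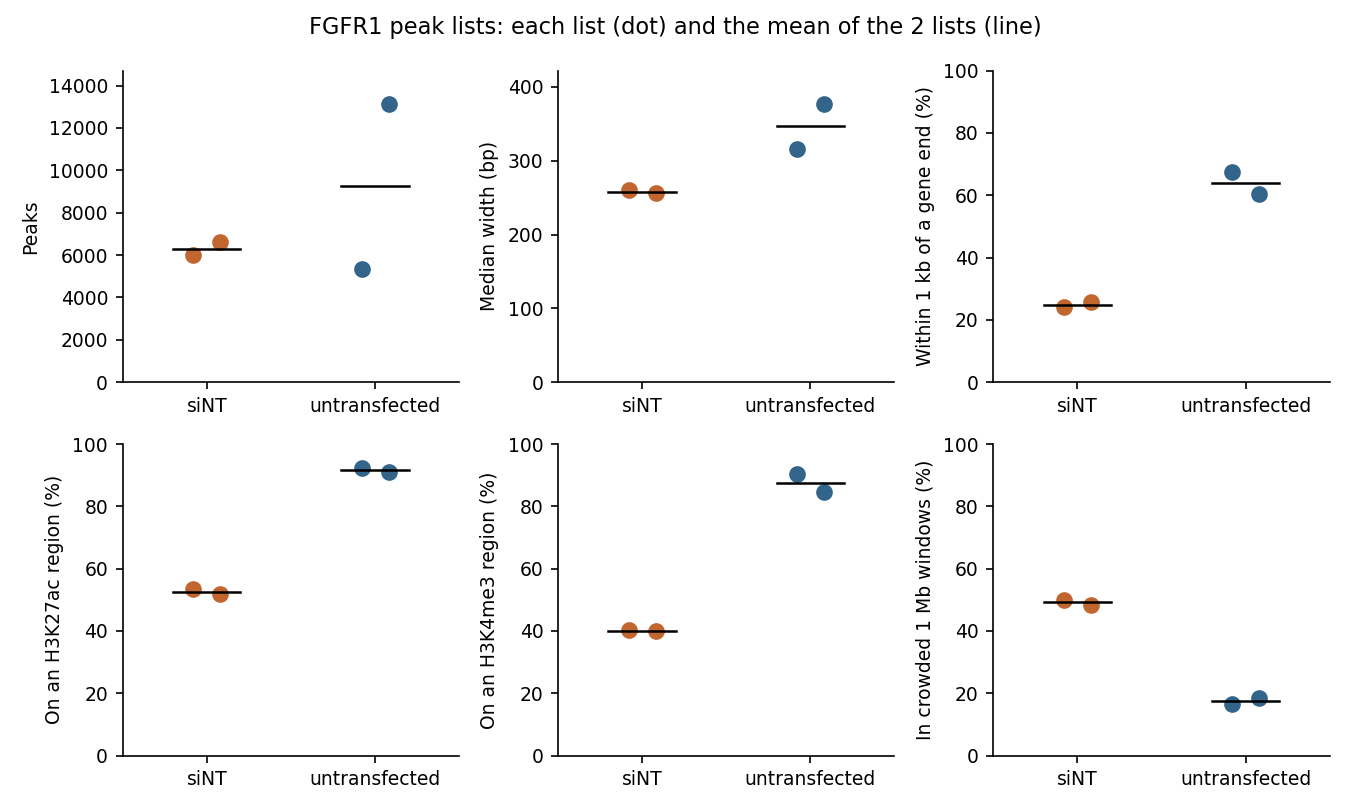
Values of the 4 FGFR1 lists, siNT at the left and untransfected at the right of each panel: number of peaks, median width in bp, and shares in percent at gene ends, on H3K27ac regions, on H3K4me3 regions and in crowded 1 Mb windows. Dots are lists and lines the mean of 2 lists; the groups overlap in the number of peaks alone, where the untransfected lists hold 5341 and 13135.

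As a share of the regions each group reproduced, the classes were unequal. Of 2247 regions in both siNT lists, 20.8% were siNT-only and 59.1% were shared. Of 4733 regions in both untransfected lists, 51.5% were untransfected-only and 28.1% were shared. A further 450 regions were in both siNT lists and 1 untransfected list, and 966 in both untransfected lists and 1 siNT list. The class sizes rested on the need for both lists of a group: the siNT-only class held 3599 regions without siNT list 1, 3221 without siNT list 2 and 874 without untransfected list 2, and the untransfected-only class 9466 without untransfected list 1.

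The siNT-only regions mostly lacked the marks of active chromatin. H3K27ac lay on 146 of 468 siNT-only regions (31.2%, 95% Wilson interval 27.2% to 35.5%), against 2418 of 2438 untransfected-only regions (99.2%, 98.7% to 99.5%), and on 89.3% of shared regions. H3K4me3 lay on 13.9% of siNT-only regions (11.05% to 17.3%), against 98.2% of untransfected-only regions (97.5% to 98.6%), and on 89.4% of shared regions. Neither mark was present at 307 siNT-only regions (65.6%), against 17 untransfected-only regions (0.697%), and at 67 shared regions (5.04%). The intervals cover counting error alone, and regions of 1 pair of lists are not replicates. The siNT-only shares moved with single lists: without untransfected list 2, H3K27ac lay on 47.7% and H3K4me3 on 31.7% of the siNT-only regions, and H3K4me3 on 8.36% without siNT list 1 and 9.07% without siNT list 2, all below the shares of the other classes in the same setting.

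The other targets had the same order for siNT-only regions, which were lowest. Pol II S5P lay on 20.3% of siNT-only, against 87.3% of untransfected-only and 75.2% of shared regions. FOXA1, the pioneer factor that opens luminal enhancers, lay on 24.6% of siNT-only, against 37.9% of untransfected-only and 53.0% of shared regions. None of the 4 targets was listed at 206 siNT-only regions (44.0%), against 9 untransfected-only regions (0.369%) and 32 shared regions. Where H3K27ac was listed it was also weaker at siNT-only regions: its median rank by fold within the mark's lists was at percentiles 76.7 and 77.1 there, against 97.7 and 97.6 at untransfected-only regions. Of the siNT-only regions, 22 (4.70%) were at gene ends, 229 (48.9%) inside genes and 217 (46.4%) between genes. Of the untransfected-only regions, 1934 (79.3%) were at gene ends, and of the shared regions 791 (59.5%).

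**Figure D2:**
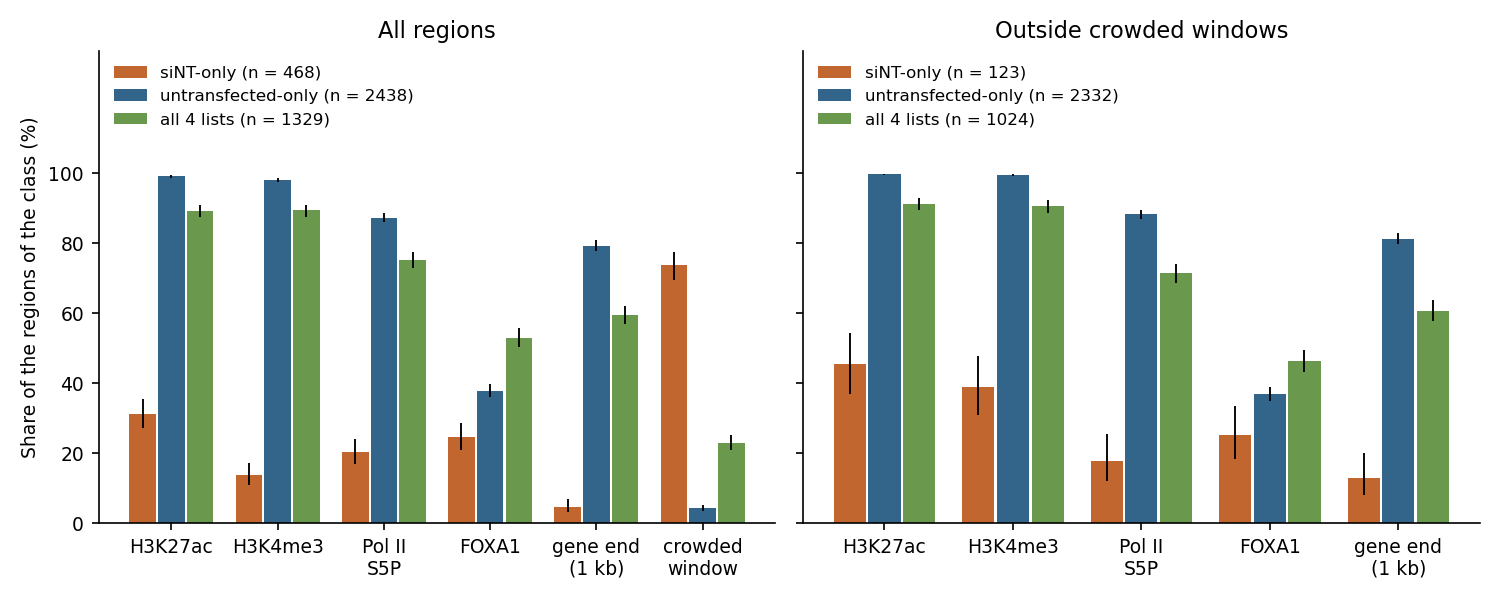
Share of the regions of each class, in percent, that overlap H3K27ac, H3K4me3, Pol II S5P or FOXA1 regions of untransfected cells, lie within 1 kb of a gene end or lie in a crowded 1 Mb window, for all regions (left) and outside the crowded windows (right). Bars are shares with 95% Wilson intervals for counting error; siNT-only bars are the lowest of the 3 classes in each measure but the crowded windows.

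Crowded windows held 345 siNT-only regions (73.7%), against 106 untransfected-only regions (4.35%), and 305 shared regions (22.9%). The 123 siNT-only regions outside them had H3K27ac at 45.5% (37.0% to 54.3%), against 99.7% of 2332 untransfected-only regions, and H3K4me3 at 39.0% (30.9% to 47.9%), against 99.6%. Gene ends held 13.01% of these siNT-only regions, against 81.3% of the untransfected-only ones. The shares of siNT-only regions with a mark were thus higher outside the crowded windows than over the class as a whole, and below those of the other classes in both places. Inside the crowded windows H3K4me3 lay on 17 of 345 siNT-only regions (4.93%), against 71 of 106 untransfected-only regions (67.0%).

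By chromosome, siNT-only regions lay on chromosome 11 (129, 27.6%), chromosome 1 (104, 22.2%) and chromosome 8 (92, 19.7%). Untransfected-only regions lay foremost on chromosome 1 (292, 11.98%), chromosome 19 (213, 8.74%) and chromosome 16 (171, 7.01%). The 468 siNT-only regions fell into 138 windows of 1 Mb, against 1046 windows for the untransfected-only and 588 for the shared regions. The fullest windows were chr11:74000001-75000000, with 59 siNT-only, 4 untransfected-only and 22 shared regions, and chr11:75000001-76000000, with 45, 9 and 14. In the first of them the siNT lists held 315 and 311 peaks, against 104 and 230 in the untransfected lists. In chr8:39000001-40000000 there were 33 siNT-only, 3 untransfected-only and 0 shared regions. The 8p11 and 11q13 gene lists cover segments that are often amplified in luminal breast cancer. The span of the 8p11 genes held 11 siNT-only, 4 untransfected-only and 21 shared regions, and the span of the 11q13 genes 22, 9 and 23. In number of peaks the groups overlapped in both spans. The 8p11 span held 209 and 260 siNT peaks, against 48 and 241 untransfected ones. In the 11q13 span there were 230 and 277 siNT peaks, against 67 and 244.

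The fullest untransfected-only window, chr16:2000001-3000000, held 17 such regions and 0 siNT-only ones. Its peaks numbered 6 and 4 in the siNT lists and 22 and 43 in the untransfected lists. Copy number was not measured in these files, and its part in the places of the peaks was not tested.

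**Figure D3:**
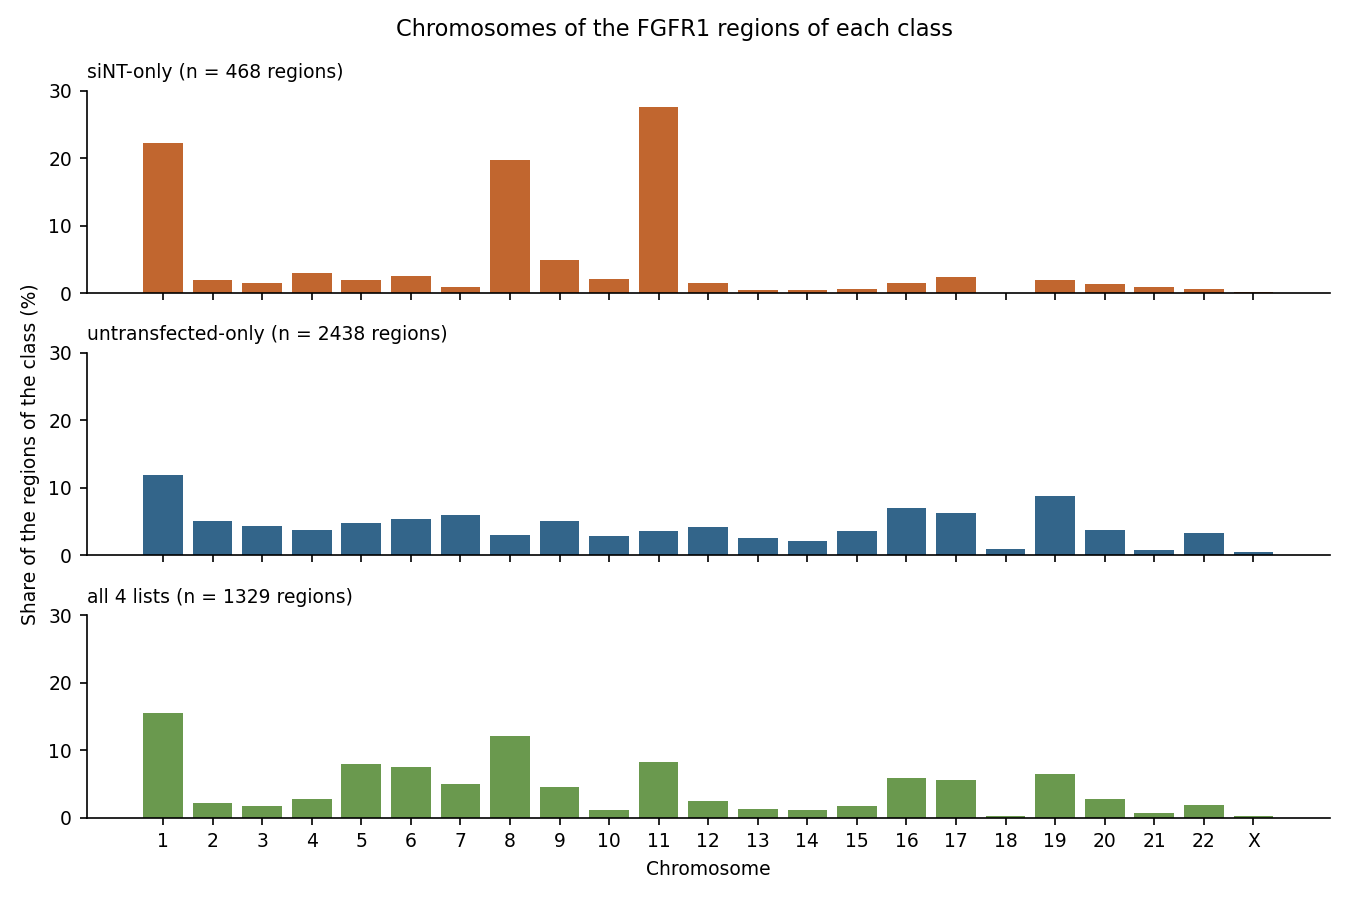
Share of the regions of each class (percent, y axis) on each chromosome (x axis), for 468 siNT-only, 2438 untransfected-only and 1329 shared regions. Chromosomes 1, 8 and 11 hold 69.4% of siNT-only, 18.7% of untransfected-only and 36.0% of shared regions.

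siNT-only regions were narrow and of middling rank. Their median width was 388.5 bp, against 527 bp for untransfected-only regions, and 688 bp for shared regions. Outside the crowded windows the median siNT-only width was 280 bp, against 527 bp for untransfected-only and 598.5 bp for shared regions. The median fold was 5.02 and 5.01 at siNT-only regions in the siNT lists, the same as over all peaks of those lists. Untransfected-only regions had medians of 5.004 and 7.11 in the untransfected lists. Within their own lists the siNT-only regions had median percentiles of 54.2 and 53.6, the untransfected-only regions 41.5 and 74.2, and 21 of 468 siNT-only regions (4.49%) were at or above percentile 90 in both lists, against 37 of 2438 untransfected-only regions (1.52%). Shared regions ranked higher, at medians of 85.3 and 85.4 in siNT lists and 81.4 and 91.5 in untransfected lists. The rule sets part of this: a shared region needs a peak in all 4 lists, is as wide as those peaks merged, and takes its highest fold in each list. Ranks and widths of the shared class are therefore given as a description. Of the siNT-only regions 85 (18.2%) had an untransfected peak within 500 bp, against 93 of the untransfected-only regions (3.81%) with a siNT peak that near.

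The siFOXA1 lists are libraries that the classes did not use, transfected like siNT. Of the siNT-only regions 31.4% and 35.9% had a peak in siFOXA1 lists 1 and 2, against 3.61% and 3.12% of the untransfected-only regions, and 63.5% and 57.6% of shared regions. Both siFOXA1 lists held 83 siNT-only regions (17.7%), against 10 untransfected-only regions (0.410%). Neither siFOXA1 list held 50.4% of siNT-only regions, against 93.7% of untransfected-only regions. Presence in the siFOXA1 lists was therefore more frequent in the siNT-only class than in the untransfected-only class in each of the 2 lists, and less frequent than in the shared class. Outside the crowded windows, which are themselves defined by their number of siFOXA1 peaks, the shares were 25.2% and 25.2% of siNT-only regions, against 3.09% and 2.32% of untransfected-only ones. The siFOXA1 backgrounds were 2.11 and 2.20 fragments, near those of siNT, and the part of depth in these shares was not tested.

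The strongest siNT-only region lay inside TBC1D5, which encodes a GTPase-activating protein for Rab7 on endosomes (chr3:17401893-17402395). Its folds were 35.1 and 36.3 in the siNT lists, with 40.5 and 38.8 in the siFOXA1 lists. Neither untransfected list held it, although each listed 1 weaker peak elsewhere in the gene (4.09 and 7.77), and it overlapped Pol II S5P but neither histone mark nor FOXA1.

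TSC1, whose product hamartin restrains the growth kinase complex mTORC1 together with TSC2, held more siNT-only regions than any other gene (chosen after its values were seen). The gene (chr9:132891349-132945378) held 17 peaks in each siNT list, against 0 and 1 in the untransfected lists, and 17 and 14 in the siFOXA1 lists. The 4 lists formed 17 siNT-only regions there and 1 region of no class, which held the untransfected peak. The siNT-only regions stood at folds of 6.59 to 28.9 and 6.58 to 35.1, and 309 to 770 bp wide. The siNT and untransfected lists did not overlap in this count, and the siFOXA1 counts were near those of siNT. Of the 17 regions 14 overlapped Pol II S5P, 9 FOXA1, 1 H3K27ac and 0 H3K4me3. The Pol II S5P lists themselves held 15 and 18 peaks in TSC1 and the FOXA1 lists 15 and 12, although these libraries came from untransfected cells. Exons are not in the annotation used here, so the place of these regions within the transcript is not given. The window of the gene counts as crowded through the gene alone: its 17 and 14 siFOXA1 peaks all lie in TSC1. Without crowded windows no TSC1 region is left, which follows from how the windows were placed.

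Of the 12 siNT-only regions with folds of at least 10 in both lists, 10 were inside TSC1. PIK3CA, the catalytic subunit of PI3-kinase, and the genes that follow were chosen after their values were seen. PIK3CA held 3 siNT-only regions and 1 shared one, with 8 and 4 peaks in siNT lists against 1 and 1 in untransfected lists. After TSC1, the genes with most siNT-only regions were all in crowded windows: PGM2L1 had 10, KCNU1, MAP6 and XRRA1 9 each, and POLD3, RAP1A and SPCS2 8 each. KCNU1, for example, held 73 and 71 peaks in siNT lists, against 18 and 70 in untransfected lists, so that the siNT counts were above both untransfected counts, the nearest by 1 peak. The highest fold in MAP6 was 6.59 and 6.27 in siNT lists, against 4.78 and 4.66 in untransfected lists.

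**Figure D4:**
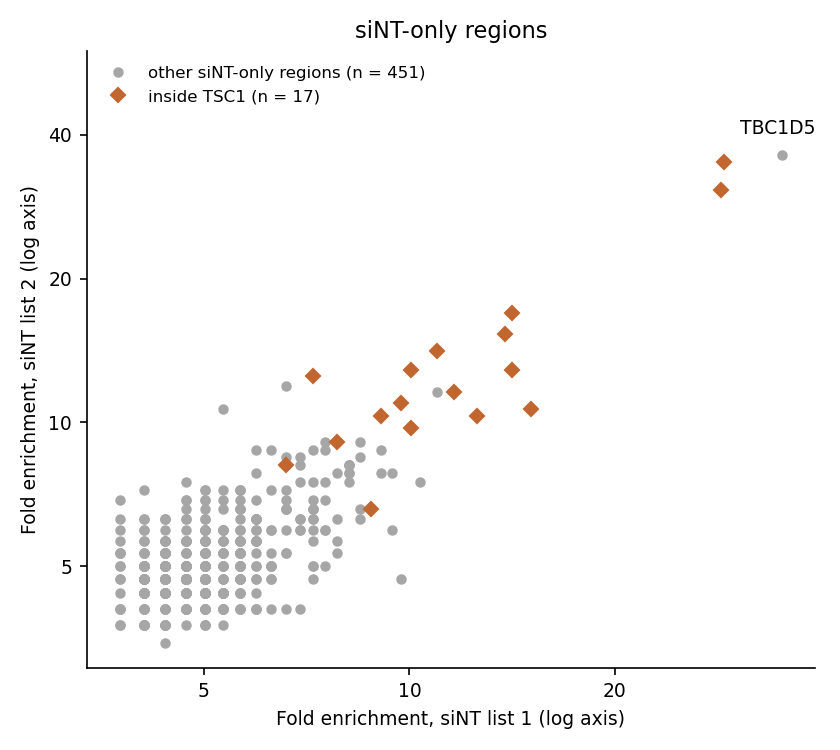
Fold enrichment of the 468 siNT-only regions in siNT list 1 (x axis, log scale) and siNT list 2 (y axis, log scale). Diamonds are the 17 regions inside TSC1, grey dots the others; most regions lie near 5 in both lists, and TBC1D5 has the highest pair, 35.1 and 36.3.

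At gene ends the classes named different numbers of genes. Of 19974 protein-coding genes, 23 (0.115%) had a siNT-only region at an end, 2315 (11.6%) an untransfected-only region and 916 (4.59%) a shared one. Of the 13303 genes with H3K4me3 at an end, 0.12% had a siNT-only region at that end, 17.4% an untransfected-only and 6.82% a shared one. A single gene had both a siNT-only and an untransfected-only region at its ends. Another 50 genes had both an untransfected-only and a shared region, and such genes are counted in both classes. Among members of the gene lists below these were BRF2, CREBBP, JUNB, KRT19, SHC1 and SRF.

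The leading siNT-only gene ends belonged to none of the 17 gene lists. C17orf50 had a pair of regions, the stronger at folds of 8.47 and 8.46 in siNT lists. LCP1, an actin-bundling protein first known from leukocytes, had 7.53 and 9.08, and TAP2 had the values given with its promoter. CCR10, a chemokine receptor, had 6.59 and 8.15. DKK1, a secreted inhibitor of Wnt signalling, had 6.59 and 6.58, CCM2L 7.53 and 5.95, and XXYLT1, a xylosyltransferase that acts on Notch, 5.96 and 6.27. None of these regions was in an untransfected list, and of these genes C17orf50 and TAP2 had a peak in siFOXA1 list 1 and DKK1 in siFOXA1 list 2. All but LCP1 had H3K4me3 at the region.

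The leading untransfected-only gene ends included parts of the transcription machinery. TAF12 and TAF4, both subunits of TFIID, had folds of 17.3 and 23.5, and of 12.97 and 22.9, in the untransfected lists. SLC7A5, an amino acid transporter, had 10.9 and 23.1, TOB1, an antiproliferative protein, 12.1 and 17.1, and SIRT6, a histone deacetylase, 11.6 and 15.3. PGS1, an enzyme of cardiolipin synthesis, had 11.6 and 18.0, and IGBP1C 15.9 and 15.8. None had a siNT peak, and of these TOB1 had a peak in a siFOXA1 list (4.82). All of these regions carried H3K4me3 and Pol II S5P. Away from gene ends the leading untransfected-only regions were near NBPF10, PARP16, NBPF20, CROCC and PPIAL4H, at folds of 14.1 to 19.6 in list 1, and carried H3K4me3 too. NBPF10, NBPF20 and PPIAL4H belong to families of near-identical copies, so the placing of their reads is uncertain.

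Of the 478 genes in the 17 lists, 0 had a siNT-only region at an end, beside 0.115% of all genes, so that nothing can be read from the 0. The ribosomal protein genes, which make the protein part of the ribosome, had an untransfected-only region at 34 of 78 members (43.6%) and a shared one at 7 (8.97%), beside 11.6% and 4.59% of all genes. Of genes with H3K4me3 at an end, as 77 of the 78 had, 17.4% had an untransfected-only and 6.82% a shared region. Both siNT lists held a region at 8 of the 78, against 50 in both untransfected lists. RPL12 was the leading untransfected-only member, at 9.55 and 17.8, followed by RPS27 at 9.55 and 12.9 and RPS2 at 9.33 and 11.99, each with no siNT and no siFOXA1 peak. The leading shared members, RPL10A and RPS3, had 6.28 and 7.21, and 5.96 and 6.58, in siNT lists, against 12.97 and 19.3, and 12.5 and 21.3, in untransfected lists. For both genes the 2 siNT folds were below both untransfected folds.

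Translation factors had an untransfected-only region at 13 of 30 members (43.3%) and a shared one at 2 (6.67%), beside 11.6% and 4.59% of all genes. Of genes with H3K4me3 at an end, as 29 of the 30 had, 17.4% had an untransfected-only and 6.82% a shared region, so the shared share was near the background. Among the 13 were EIF3E, a subunit of the initiation factor eIF3, at 7.73 and 14.2 in the untransfected lists, and EEF2, the ribosomal translocase, at 7.51 and 12.2. PABPC1, which binds the poly(A) tail of messenger RNA, was shared, at 5.96 and 4.39 in siNT lists and 13.6 and 18.4 in untransfected lists. The peak of EEF1A1, the elongation factor that delivers tRNA, had 81.6 and 81.1 in the siNT lists, against no peak and 5.995 in the untransfected lists, with 83.6 and 81.9 in the siFOXA1 lists. With a peak in 1 untransfected list, EEF1A1 belongs to none of the 3 classes. PGK1, a glycolytic kinase chosen after its values were seen, had the same pattern, with 60.6 and 75.5 in siNT lists against no peak and 14.9 in untransfected lists.

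Immediate early genes, the first to respond to growth factor signals, had an untransfected-only region at 6 of 28 members (21.4%, beside 17.4% of genes with H3K4me3) and a shared one at 9 (32.1%, beside 6.82%). JUNB, a subunit of AP-1, was shared at 15.7 and 15.4 in siNT lists, against 18.9 and 34.4 in untransfected lists, and had an untransfected-only region as well. DUSP1, a phosphatase that switches off MAP kinases, had 10.4 and 8.77 in siNT lists, against 12.5 and 23.8 in untransfected lists. EGR1, a zinc finger factor induced by ERK, had 8.16 and 5.95 in siNT lists and 7.73 and 13.99 in untransfected lists, and its groups overlapped. MCL1, an inhibitor of cell death, and ZFP36L2, which destabilises messenger RNAs, were untransfected-only at 7.96 and 11.1, and at 7.28 and 13.99.

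The FGF and ERK list had 7 members with an untransfected-only region and 7 with a shared one among 38 (18.4% each), beside 11.6% and 4.59% of all genes. Of genes with H3K4me3 at an end, as all 38 members had, 17.4% had an untransfected-only and 6.82% a shared region, so the untransfected-only share was near the background. FGFR1 itself had a shared region at an end, with 7.53 and 7.21 in siNT lists, against 10.0 and 10.4 in untransfected lists. Over the whole gene and its flanks there were 18 and 19 FGFR1 peaks in siNT lists, against 1 and 22 in untransfected lists, so the siNT counts lay between the untransfected counts. CCND1, the cyclin that takes cells out of G1 and a resident of 11q13, had 20.1 and 17.9 in siNT lists and 21.6 and 27.8 in untransfected lists. FGFR4, another receptor of the family, had 11.3 and 8.46 in siNT lists against 10.0 and 13.3 in untransfected lists. The adaptors FRS2 and GRB2, which link the receptor to RAS, and the kinase MAP2K2 were untransfected-only, at 5.004 and 7.33, 5.23 and 7.55, and 8.64 and 10.4.

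Luminal genes had an untransfected-only region at 8 of 30 members (26.7%, beside 17.4% of genes with H3K4me3) and a shared one at 5 (16.7%, beside 6.82%). The keratins KRT8 and KRT18, which share the region between them, had 6.14 and 10.9 in the untransfected lists. ELF3, an epithelial ETS factor, had 8.87 and 14.2, and KDM4B, a demethylase and partner of the oestrogen receptor, was shared at 9.10 and 10.7 in siNT lists against 16.6 and 24.9 in untransfected lists. FOXA1 had a peak at an end in 1 siNT list (5.02) and in both untransfected lists (5.004 and 7.99). ESR1, the oestrogen receptor gene, had no peak in any FGFR1 list.

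Genes that sense double-stranded RNA or drive the interferon response had an untransfected-only region at 6 of 29 members (20.7%). A shared region lay at 1 member, RELA (3.45%). Over all genes these shares were 11.6% and 4.59%. They were 17.4% and 6.82% over genes with H3K4me3 at an end, which 25 of the 29 had, so the untransfected-only share was near the background. The 6 included MAVS, the adaptor of cytosolic RNA sensors, at 5.46 and 8.22 in the untransfected lists. The genes of RNA interference had 6 untransfected-only members (46.2%) and 1 shared one (7.69%) among 13. H3K4me3 lay at an end of 11 of the 13. Of all genes with H3K4me3 at an end, 17.4% had an untransfected-only and 6.82% a shared region, so the shared share was near the background. AGO1 and AGO3 are among the 6 and have the same region, at 4.32 and 5.11 in the untransfected lists. DGCR8 and DROSHA, which cut primary microRNAs, had 6.60 and 10.2, and 4.55 and 7.99, in the untransfected lists, and DICER1, which cuts the hairpin, 3.64 and 5.995. None of these had a siNT peak in the region.

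Of the remaining lists, chromatin regulators had 13 untransfected-only and 8 shared members of 38, stress and heat shock genes 10 and 2 of 33, cell cycle genes 5 and 2 of 32, Mediator subunits 4 and 2 of 32, and lipid and endosome genes 4 and 3 of 24. Chromatin regulators thus had shares of 34.2% and 21.1%, and stress genes of 30.3% and 6.06%. Beside them stand 11.6% and 4.59% of all genes, and 17.4% and 6.82% of genes with H3K4me3 at an end. For the cell cycle, Mediator and lipid lists the untransfected-only shares of 15.6%, 12.5% and 16.7% were near the 11.6% of all genes and 17.4% of genes with H3K4me3. The shared shares of these lists were 6.25%, 6.25% and 12.5%. The lists of basal or mesenchymal, haematopoietic, and neuronal or hepatic genes had none in either class. The 8p11 list had 1 untransfected-only member, BRF2, and 17 shared members of 23 (73.9%). A shared region lay at 4.59% of all genes and 6.82% of those with H3K4me3. Some of the 17 have a region in common, and BRF2 is also 1 of them. Its untransfected-only region had folds of 3.87 and 3.11 in the untransfected lists. Its shared region had 5.65 and 5.95 in siNT lists, against 6.82 and 11.99 in untransfected lists. Shared 8p11 folds were 5.02 to 11.3 and 4.70 to 9.40 in siNT lists, against 5.46 to 13.4 and 7.33 to 22.9 in untransfected lists. The 11q13 list had 1 untransfected-only member, TPCN2, and 5 shared ones of 12 (41.7%), beside the same shared shares of 4.59% and 6.82%.

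The shared regions were stronger in siNT lists at some places and weaker at more; no test over regions was made. Both siNT folds were above both untransfected folds at 357 of 1329 shared regions (26.9%) and below them at 593 (44.6%). The groups overlapped at the rest. The median log2 ratio of the mean siNT fold to the mean untransfected fold was -0.34 over all shared regions, -0.57 at gene ends and 0.31 away from them. Fold enrichment is relative to each list's own background, which was lower in the siNT lists, and the part of depth in these ratios was not tested. In pileup, which is not divided by background, shared regions had medians of 21 and 21 fragments in siNT lists, against 32 and 47 in untransfected lists. By rank within the lists, given as a description, since lists of different length and make-up shift ranks without any change at a region, shared gene ends stood at a median percentile of 78.8 in siNT lists against 87.9 in untransfected lists, and regions away from gene ends at 89.0 against 81.1. Across the 1329 shared regions, given as a description, Spearman's rho of the folds was 0.79 within siNT, 0.82 within untransfected and 0.31 to 0.44 between the groups. The 4 lists share the same regions by construction, and regions are not independent replicates.

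The strongest shared gene end was that of ZBTB7B, a zinc finger factor, at 70.3 and 74.9 in siNT lists against 37.3 and 43.5 in untransfected lists. KDM3B followed, with the values given with its promoter. ATMIN, a factor of the DNA damage response, had 39.2 and 41.4 in siNT lists, against 18.0 and 28.2 in untransfected lists, and RFX7, a tumour-suppressive factor in the p53 network, had 39.9 and 37.9, against 21.4 and 24.2. At each of these 3 gene ends both siNT folds were above both untransfected folds.

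Further leading ends were CCDC106 (39.9 and 45.7 in siNT, 26.2 and 32.4 in untransfected lists), RAPGEF1, an exchange factor for RAP1 (33.6 and 36.7 against 22.1 and 27.8), and TPBGL (36.4 and 41.0 against 15.9 and 25.5). The strongest regions of all were far from genes: one at chr3:93470236-93470925, with PROS1 as the nearest gene at 402126 bp, had 125.8 and 125.6 in siNT lists and 91.2 and 88.6 in untransfected lists. Another at chr16:46389399-46391530 had 101.7 and 100.9 in siNT lists and 71.9 and 71.1 in untransfected lists. Both lie next to the centromere of their chromosome. Their pileups were 400 and 400 fragments in siNT lists against 400 and 398 in untransfected lists at the first, and 323 and 321 against 315 and 319 at the second. No list of the series had a pileup above 400, so values at that ceiling cannot be compared, and the folds there follow the background of each list. In fragments, ZBTB7B had pileups of 223 and 238 in siNT lists, against 163 and 195 in untransfected lists. RFX7 and TPBGL were likewise higher in both siNT lists. The groups overlapped in pileup at KDM3B (142 and 166 in siNT lists, against 147 and 175), ATMIN, CCDC106 and RAPGEF1. At LOC124900276 both siNT pileups were lower, 100 and 123 against 133 and 158 in untransfected lists.

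The widest gaps between the groups, picked after the values were seen, ran in both directions. E2F4, a repressor of cell cycle genes, had the highest siNT excess at an end, 30.4 and 31.0 in siNT lists against 7.28 and 14.4 in untransfected lists (log2 ratio 1.501). KCNK18, a potassium channel, had 25.1 and 21.9 at a region 6326 bp from its end, against 8.87 and 11.5. At the other extreme, a region 9481 bp from an end of KIAA2013 had 7.85 and 5.33 in siNT lists, against 29.1 and 36.2 in untransfected lists (-2.31). CDK12, a kinase of the elongating polymerase, had 6.28 and 7.21 at its end, against 20.02 and 30.2, and KNL1, a kinetochore scaffold, 4.08 and 4.39, against 10.7 and 16.2. All 10 regions with the lowest ratio carried H3K4me3, as did 7 of the 10 with the highest.

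**Figure D5:**
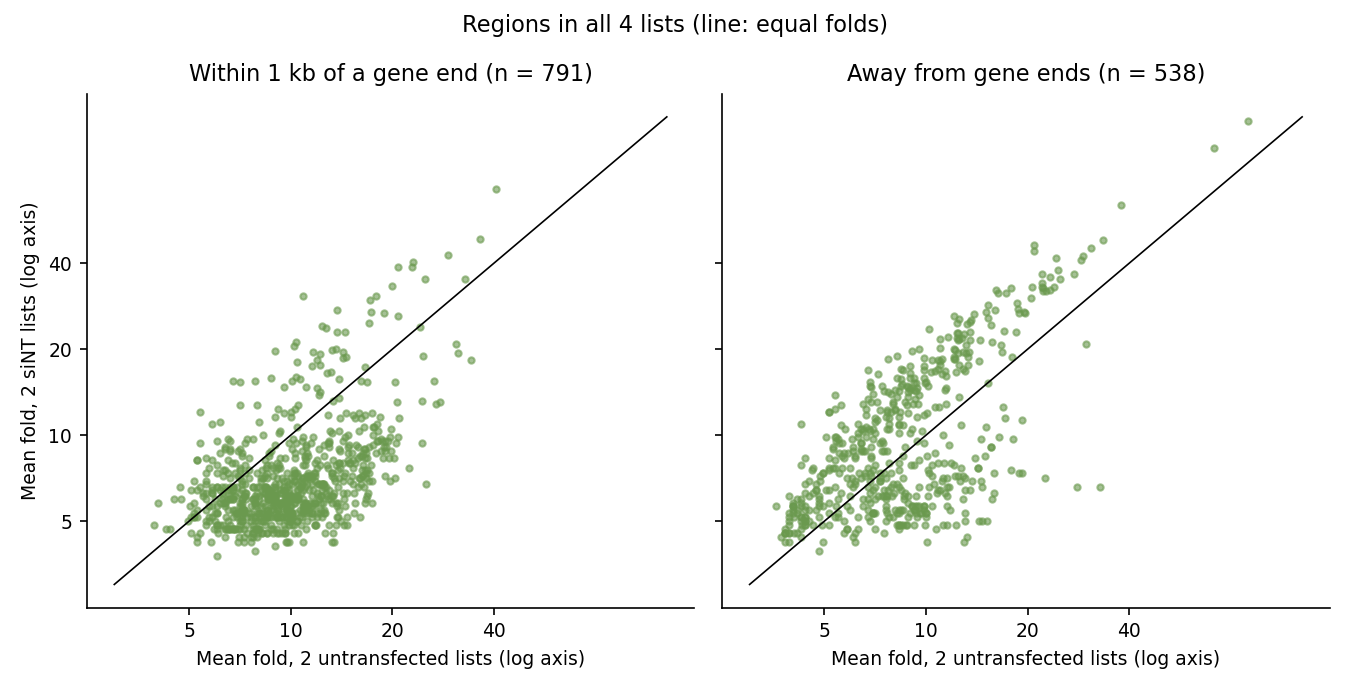
Mean fold of the 2 siNT lists (y axis, log scale) against the mean fold of the 2 untransfected lists (x axis, log scale) for the 1329 shared regions, at gene ends (left, n = 791) and away from them (right, n = 538). Each dot is a region and the line marks equal folds; the median log2 ratio is -0.57 at gene ends and 0.31 away from them.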

How the data were processed

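ChIP-seq peak lists of 14 libraries were used, and the 7 inputs were not used here. Per the submitters' processing notes, the build is hg38 and the tools are Bowtie2, SAMtools, Picard and MACS2, with no versions or roles given. Each library has its own list. The authors deposited per peak its fold over background (a ratio on a linear scale), p and q as −log10 values, and an integer score. The score and the summit were not used. Each fold and p is the authors' own value and was used to rank peaks within a list, save that the folds of the same region were also set side by side between lists. Peak names inside the lists disagree with the labels on the replicates of untransfected FGFR1, and name the FOXA1 lists FOXA2; the labels were followed. Rows outside chromosomes 1 to 22 and X were left out.

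Peaks were merged and counted with Python 3.11.15 code (numpy 2.4.6, pandas 2.3.3, scipy 1.17.1), a shared stretch being at least 1 bp. A mark region is a merged stretch with a peak of both lists of the mark. The fold equals (pileup + 1)/(background + 1), which with the Poisson p gives the background in fragments (2.19 to 3.50 in the 4 lists). With a single background per list, 100% of pileups in the 4 lists came out as whole numbers. In the Pol II S5P lists 1.88% and 4.80% did. Folds of the 4 lists are therefore over a single background per list, without correction for local differences. Read totals were not used. Genes are the 19974 protein-coding genes of the RefSeq table (GRCh38.p14), which gives no strand or exons. Lists were compared by exact permutation tests, and classes by shares with Wilson intervals. Simulated lists were used to test the merging, the classes and the recovery of the background.

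Named genes are the 8 leading gene-end regions and 5 leading other regions of each class by mean percentile of fold, up to 8 members of the pathway lists, FGFR1, FOXA1, CCND1, ESR1 and EEF1A1, and 2 genes per class with a promoter to print. TSC1 counts, PIK3CA, PGK1, the genes with most siNT-only regions and those with the widest gaps in fold were chosen after their values were seen. The members, gene lists and rules were chosen with earlier results of these data known. Some genes are not reported here. Replicates numbered alike were not paired by the labels.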

Additional observations from a re-analysis of the deposited data

Results flagged for a closer look

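A signal outside the main measurement was found on sequences other than chromosomes 1 to 22 and X. The siNT lists held 113 and 116 such peaks, against 55 and 63 in the untransfected lists, and the siFOXA1 lists held 122 and 125. Of the siNT peaks 96 and 102 were on unplaced or alternate sequences, against 44 and 53 of the untransfected ones, and 4 and 5 were mitochondrial, against 5 and 5. These peaks were left out of every comparison above.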

How the results depend on the processing

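The siNT-only class was the least stable: 468 regions, against 164 when every list was limited to a −log10 q of at least 5, 127 when that held for presence and the deposited threshold for absence, 123 without the crowded windows, and 513 to 3599 with 1 list left out. Leaving out a list gave 2855 to 9466 untransfected-only regions. The difference in peaks per list, siNT minus untransfected, was -2937.5 and ran from -6834.5 to 959.5, turning round without untransfected list 2. The count of 17 regions in TSC1 was 12 with peaks within 500 bp joined and 0 without crowded windows, and 17 in the other settings. The 0 follows from the rule, since the siFOXA1 peaks of TSC1 itself made its window a crowded one.

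H3K27ac on siNT-only regions (31.2%) was 55.0% with a 50% reciprocal overlap, 42.8% with lists of equal length and 45.5% without crowded windows, and 25.2% to 47.7% with a list left out. H3K4me3 on them (13.9%) was 29.9% and 28.3% at the q thresholds, 45.4%, 25.96% and 39.0% under those 3 settings, and 8.36% to 31.7% with a list left out. For untransfected-only regions, H3K27ac was 99.6%, 99.6%, 99.6% and 99.7% (the q thresholds, equal length, no crowded windows; 93.3% to 99.1% with a list left out), and H3K4me3 99.3%, 99.4%, 99.6% and 99.6%, and 98.8% with peaks within 500 bp joined (87.5% to 97.8%). For shared regions, H3K27ac was 87.5%, 87.5%, 92.2% and 91.3% (84.3% to 92.0%), and H3K4me3 87.0% with peaks joined and 92.3% at equal length (80.9% to 91.7%). The order of the classes held in each of these settings. The causes of these shifts were not tested.

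With a replicate block the differences were the same, -2937.5 peaks and -39.1 and -47.3 percentage points for H3K27ac and H3K4me3. An exact permutation test that flips the signs of the paired differences gave a p of 1 for peaks. For the marks it gave 0.5, the smallest possible. Over the 1329 shared regions, Spearman's rho of the folds was 0.44 and 0.32 for same-numbered siNT and untransfected lists. For differently numbered ones it was 0.31 and 0.44, so the numbers gave no sign of pairing the lists. The alternatives fixed by construction were not run: equal length for the number of peaks, and no crowded windows for the share in them. The lowest listed pileup was 10 fragments in both siNT lists, against 14 and 12 in the untransfected lists, and the part of depth was not tested.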
